A study of Mus musculus with 18 samples.

Results

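The genes of the inflammasome and of the interleukin-1 (IL-1) family were followed in mouse hearts that had been stored cold and then reperfused. They were chosen by name as Il1a, Il1b, Il1rn, Il18, Il33, Nlrp3, Pycard, Casp1, Casp4, and Gsdmd, which is 10 of the 34989 genes summed from the files. Earlier results of these data were known when they were chosen, so their shares beside those of all genes are a description. All 10 passed the filter on low counts in every comparison. Il18 held only 5, 6, and 9 estimated counts in the RV 0 h libraries and passed in RV on its stored libraries. The study asked whether cold preservation of a donor heart affects the left ventricle (LV) and the right ventricle (RV) differently. Hearts of C57B/L6 mice (so spelled in the labels, C57BL/6J in the methods) were flushed with HTK (histidine-tryptophan-ketoglutarate), a preservation solution, kept cold in it for 0, 4, or 8 h, and perfused ex vivo with Krebs buffer for 1 h before LV and RV were taken. Each of the 6 groups of ventricle and storage time held 3 libraries of bulk tissue RNA, numbered 1 to 3. The 0 h hearts were flushed and perfused in the same way as the stored ones, so none of the groups is unperfused heart. The labels give an age of 12 weeks and the study's methods a younger one, and the methods name both sexes and wild type animals. The labels do not say which number was which animal. Libraries held between 22552581 and 46236771 estimated counts, and with 3 libraries a group an exact permutation test of single values cannot give a p below 0.1. Nothing states that the libraries of a group came from separate animals, so p-values measure the spread between libraries.

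The IL-1 family holds cytokines that start inflammation and molecules that restrain it. IL-1α (Il1a) and IL-33 (Il33) are kept inside cells and act as alarm signals when a cell dies, whereas IL-1β (Il1b) and IL-18 (Il18) are made as inactive precursors. An inflammasome is the protein complex that activates them: a sensor such as NLRP3 (Nlrp3) binds the adaptor ASC (Pycard), which gathers caspase-1 (Casp1), and caspase-1 then cleaves the precursors and gasdermin D (Gsdmd), whose N-terminal part opens pores in the membrane. Mouse caspase-11 (Casp4) cleaves gasdermin D in a separate route that answers to bacterial lipopolysaccharide inside the cell. The study blotted NLRP3, ASC, cleaved caspase-1, IL-1β and its cleaved form, and the cleaved N-terminal part of gasdermin D in LV and RV. Those blots were not analysed here, and counts of RNA carry no record of protein level or of cleavage.

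Il1rn and Casp4 rose at both storage times in both ventricles, and no member fell. At 8 h Il33 and Gsdmd also rose in LV and RV, and Casp1 and Il18 rose in RV. Nlrp3, Il1a, and Il1b were higher on average after storage in both ventricles without passing the test. In LV at 8 h this did not hold for Il1a and Il1b per transcript length (TPM, explained further on). Their mean TPM there was 4.12 against 4.56 at 0 h for Il1a and 21.6 against 21.7 for Il1b. Nlrp3, Il1a, and Il1b passed the test in RV at both times when same-numbered libraries, which deviated together in RV, were fitted as blocks. Each heart had 1 storage time, so libraries of a number at different times are not of 1 heart. What these blocks share is not stated. Pycard stayed between 3.21 and 6.89 CPM in all 18 libraries, CPM being a gene's counts scaled to a common library size. A gene was called changed when its Benjamini-Hochberg adjusted p from edgeR's quasi-likelihood test was under 0.1 and its fold change over 1.5. By this rule 2 of 10 members rose in LV at 4 h, where 2.79% of all tested genes were called in either direction, and 4 of 10 in LV at 8 h, against 6.72% of all tested genes. In RV, 2 of 10 rose at 4 h, against 10.1%, and 6 of 10 at 8 h, against 18.2%. With the replicate number as a block the RV counts were 8 of 10 at 4 h, against 13.9% of tested genes, and 9 of 10 at 8 h, against 24.3%. The median log2 fold change of the 10 members was 1.24 in LV at 4 h, 1.15 in LV at 8 h, 1.59 in RV at 4 h, and 2.20 in RV at 8 h. Over all tested genes the medians were -0.0044, -0.017, 0.0034, and -0.072 in the same order. The counts of members, like those of all genes called, depended on single libraries. In LV at 4 h the count of members fell to 1 without LV 0 h replicate 2, LV 0 h replicate 3, LV 4 h replicate 1, or LV 4 h replicate 3. Over all tested genes the calls fell from 407 to 15, 43, 78, and 85 in these fits. In LV at 8 h the count of members fell to 1 without LV 0 h replicate 2 or 3 and to 2 without LV 8 h replicate 3. Over all tested genes the calls fell from 978 to 142, 278, and 417. In RV at 4 h members rose to 4 without RV 0 h replicate 1 or RV 4 h replicate 3 and to 5 without RV 8 h replicate 3. All calls there went from 1474 to 1440, 917, and 2066. In RV at 8 h members fell to 3 without RV 0 h replicate 2, and all calls from 2665 to 1263.

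**Figure D1:**
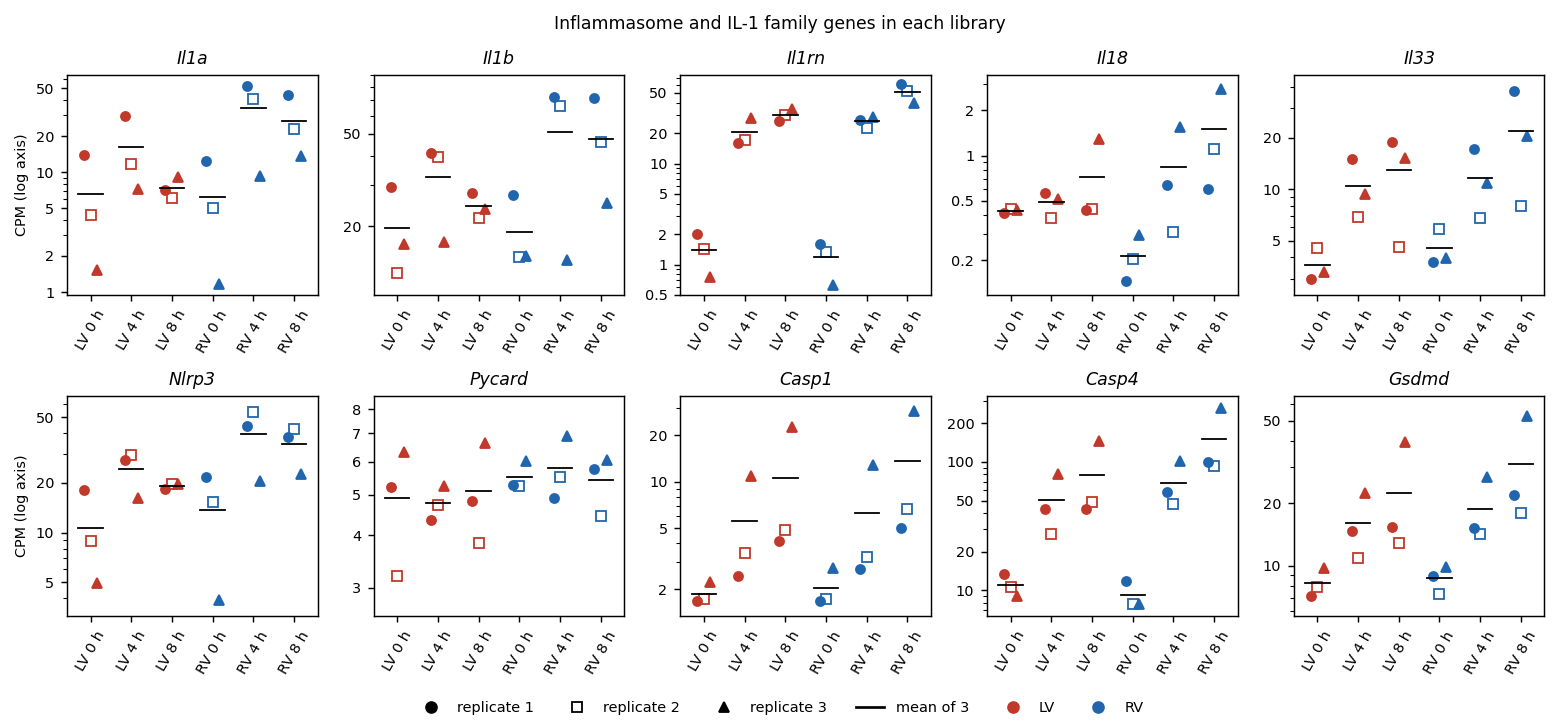
CPM (log axis, a separate scale in each panel) of the 10 genes in all 18 libraries, by ventricle and storage time. Circles, open squares, and triangles are replicates 1, 2, and 3, and bars are means of 3 libraries. Il1rn and Casp4 in stored libraries lie above all 0 h libraries of the same ventricle, Pycard stays between 3.21 and 6.89 CPM, and triangles lie highest for Casp1, Casp4, and Gsdmd after storage.

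The same shift was seen without a model. All 3 stored libraries lay above all 3 libraries at 0 h for 5 members in LV at 4 h (Il1rn, Il33, Casp1, Casp4, and Gsdmd), where 12.8% of tested genes did so. In LV at 8 h 6 members did (the same 5 and Nlrp3), against 15.5% of genes. In RV the numbers were 5 members at 4 h (Il1rn, Il18, Il33, Casp4, and Gsdmd), against 14.9%, and 8 members at 8 h, against 18.4%, with Il1b and Pycard the exceptions. For Il18 at 4 h this rested on scaling, with 8 estimated counts in RV 4 h replicate 2 and 9 in RV 0 h replicate 3. CPM values are after TMM normalization of the 18 libraries, and replicates are listed in the order 1, 2, 3. In bulk tissue, fewer cells of a type and less RNA per cell cannot be told apart, and the same holds for more cells and more RNA per cell.

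Promoter windows of the members with a motif match are shown, with those of Il33, which has 2 starts whose shares of the gene's RNA are compared further on. RefSeq promoter sequences (GRCm38.p6) were on hand for 9 of the 10 members, as 14 windows of 250 bases upstream of an annotated start, and Gsdmd had no entry. Capitals mark an NF-κB consensus in Casp4 and Nlrp3 and the AP-1 motif TGANTCA in Il1rn and Il1a, searched on both strands. The other windows of Il1rn lie by the start of transcript Il1rn-201, which took 88.0% of the gene's counts over all libraries. They hold no match and are not printed, and the same goes for the other window of Nlrp3. In Casp4 the first run of capitals holds 2 overlapping matches, and a further Casp4 window that overlaps with nearly all of this one and has the same matches is not printed. The sequences are written 5′ to 3′ on the strand of the gene.
Casp4, chr9:5308599-5308848, plus strand: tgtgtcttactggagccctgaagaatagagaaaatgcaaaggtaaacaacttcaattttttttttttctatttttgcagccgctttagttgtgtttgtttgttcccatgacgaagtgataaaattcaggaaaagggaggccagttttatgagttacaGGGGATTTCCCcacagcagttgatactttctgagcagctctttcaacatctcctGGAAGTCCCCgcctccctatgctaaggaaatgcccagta
Nlrp3, chr11:59541319-59541568, plus strand: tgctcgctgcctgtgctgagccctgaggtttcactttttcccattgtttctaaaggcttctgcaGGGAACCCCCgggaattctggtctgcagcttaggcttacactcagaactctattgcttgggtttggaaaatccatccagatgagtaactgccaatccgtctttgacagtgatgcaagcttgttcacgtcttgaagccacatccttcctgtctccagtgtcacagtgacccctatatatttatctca
Il1rn (upstream start), chr2:24336610-24336859, plus strand: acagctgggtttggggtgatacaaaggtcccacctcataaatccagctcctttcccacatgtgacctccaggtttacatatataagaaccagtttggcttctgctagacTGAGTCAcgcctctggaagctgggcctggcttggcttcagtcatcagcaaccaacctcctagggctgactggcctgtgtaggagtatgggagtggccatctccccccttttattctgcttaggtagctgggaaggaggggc
Il1a, chr2:129309973-129310222, minus strand: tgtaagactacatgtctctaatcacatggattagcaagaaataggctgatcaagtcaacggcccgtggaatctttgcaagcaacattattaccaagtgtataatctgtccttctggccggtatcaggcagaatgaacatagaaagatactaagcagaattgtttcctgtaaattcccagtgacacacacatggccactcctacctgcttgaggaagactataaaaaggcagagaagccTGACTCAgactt
Il33 (upstream start), chr19:29924863-29925112, plus strand: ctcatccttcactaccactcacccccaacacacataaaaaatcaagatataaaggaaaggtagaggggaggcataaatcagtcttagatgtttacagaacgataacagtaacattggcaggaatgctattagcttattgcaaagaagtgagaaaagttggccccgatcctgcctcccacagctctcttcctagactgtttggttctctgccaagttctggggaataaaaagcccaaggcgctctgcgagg
Il33 (downstream start), chr19:29945540-29945789, plus strand: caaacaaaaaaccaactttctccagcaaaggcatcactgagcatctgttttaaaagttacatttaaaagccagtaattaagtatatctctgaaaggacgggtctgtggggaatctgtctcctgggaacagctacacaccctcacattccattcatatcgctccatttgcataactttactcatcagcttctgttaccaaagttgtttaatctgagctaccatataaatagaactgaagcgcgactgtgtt
The NF-κB consensus was found in 3 of the 14 windows, 2 of which are the overlapping ones of Casp4, and 7.25% of all 32851 mouse windows held it. The AP-1 motif was found in 2 of the 14 windows and in 6.75% of all windows. An interferon-response motif, 2 copies of GAAA with 2 bases between them, and TTCNNNGAA, a STAT motif, were found in 0 of the 14, and 2.98% and 7.02% of all windows held them. A match is a run of letters and says nothing of binding in these hearts.

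Il1rn (ENSMUSG00000026981.15, chr2:24336853-24351494, plus strand) encodes the IL-1 receptor antagonist, which occupies the IL-1 receptor without activating it. In LV, Il1rn was 2.003, 1.42, and 0.747 CPM at 0 h, 15.9, 17.04, and 28.4 CPM at 4 h, and 26.3, 30.5, and 34.6 CPM at 8 h. In RV, Il1rn was 1.61, 1.32, and 0.620 CPM at 0 h, 26.9, 22.4, and 29.2 CPM at 4 h, and 60.9, 52.7, and 39.5 CPM at 8 h. Every stored library stood above every 0 h library, and in both ventricles the 8 h mean was above the 4 h mean. Il1rn rose 14.4-fold in LV at 4 h (log2 fold change 3.85, SE 0.36, adjusted p = 0.0075) and 21.5-fold at 8 h (4.43, SE 0.36, adjusted p = 0.0020). In RV it rose 22.2-fold at 4 h (4.47, SE 0.32, adjusted p = 0.0017) and 43.0-fold at 8 h (5.43, SE 0.33, adjusted p = 0.00040). These were the largest changes among the 10 members in each of the 4 comparisons, and the call held when any single library was left out. It was lost in LV at 4 h (adjusted p = 0.27) and at 8 h (adjusted p = 0.108) when replicate 2 of every group was left out, with log2 fold changes of 3.97 and 4.43. Those 2 fits called 0 and 1 of all 14690 tested genes. Transcript Il1rn-201, which encodes the secreted form, took 84.1% ± 10.2 (SD, n = 3) of the gene's counts in LV at 0 h and 88.4% ± 2.3 at 8 h. Transcript Il1rn-204, which begins at the upstream start shown above and encodes an intracellular form, took 5.7% ± 7.0 in LV at 0 h and 6.5% ± 1.6 at 8 h. In RV Il1rn-201 took 80.2% ± 7.7 at 0 h and 88.5% ± 1.9 at 8 h, and the 0 h and 8 h libraries overlapped for both transcripts in both ventricles.

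Casp4 (ENSMUSG00000033538.13, chr9:5308828-5336783, plus strand) encodes caspase-11. In LV, Casp4 was 13.5, 10.6, and 9.02 CPM at 0 h, 43.4, 27.7, and 79.96 CPM at 4 h, and 43.4, 48.5, and 146 CPM at 8 h. In RV, Casp4 was 11.9, 7.89, and 7.87 CPM at 0 h, 58.2, 47.0, and 102 CPM at 4 h, and 100.2, 92.4, and 263 CPM at 8 h. No stored library overlapped with the 0 h libraries of its ventricle, and replicate 3 was the highest of each stored group. Casp4 rose 4.57-fold in LV at 4 h (log2 2.19, SE 0.53, adjusted p = 0.091) and 7.22-fold at 8 h (2.85, SE 0.54, adjusted p = 0.030). In RV it rose 7.59-fold at 4 h (2.92, SE 0.49, adjusted p = 0.013) and 16.8-fold at 8 h (4.07, SE 0.51, adjusted p = 0.0022). The RV calls held when any single library was left out. Without number 1 or 2 of every group the RV call at 4 h was lost, and 236 and 13 of all tested genes were called. The RV call at 8 h held without any number. The LV call at 4 h was lost without any one of LV 0 h replicates 1, 2, and 3, LV 4 h replicates 1 and 3, and LV 8 h replicate 2, with adjusted p up to 0.34. The LV call at 8 h was lost without LV 0 h replicate 2 or 3, with adjusted p up to 0.15. Both LV calls were also lost without number 1 or 2 of every group. Those fits called 49 and 0 of all tested genes at 4 h and 201 and 1 at 8 h.

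The transcripts that make up Casp4 RNA had other shares after storage than at 0 h. Casp4-201, which encodes the full protein, took 50.3% ± 2.6 (SD, n = 3) of the gene's counts in LV at 0 h, 62.4% ± 6.3 at 4 h, and 65.6% ± 4.2 at 8 h. Its share in RV was 49.7% ± 3.2, 64.6% ± 2.5, and 69.5% ± 6.0 at the same times. Casp4-202, an annotated form that keeps an intron and encodes no protein, took 27.4% ± 2.3 in LV at 0 h and 12.5% ± 3.8 at 8 h, and 27.5% ± 5.3 and 9.3% ± 2.7 in RV. In both ventricles the stored and 0 h libraries did not overlap for either transcript, at 4 h or at 8 h, and each of these comparisons had the smallest p that an exact two-sided permutation test of 3 against 3 allows (0.1). Casp4-202 itself was not at a lower level after storage, with a mean of 3.002 ± 0.53 CPM in LV at 0 h and 9.22 ± 5.34 CPM at 8 h, while Casp4-201 went from 5.58 ± 1.43 to 51.2 ± 35.6 CPM. Transcript shares compare transcripts within a library and do not depend on how libraries were scaled, but reads from shared exons had been divided between transcripts by estimation.

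Casp1 (ENSMUSG00000025888.5, chr9:5298517-5307265, plus strand) lies just upstream of Casp4 on the same strand. In LV, Casp1 was 1.67, 1.72, and 2.24 CPM at 0 h, 2.46, 3.47, and 10.9 CPM at 4 h, and 4.10, 4.85, and 22.8 CPM at 8 h. In RV, Casp1 was 1.70, 1.73, and 2.74 CPM at 0 h, 2.70, 3.23, and 12.9 CPM at 4 h, and 4.98, 6.67, and 29.0 CPM at 8 h. Replicate 3 was the highest library of every group, and after storage it exceeded the other two libraries several fold. Casp1 rose in RV at 8 h (6.80-fold, log2 2.77, SE 0.81, adjusted p = 0.054). The change at 8 h in LV was 5.62-fold (log2 2.49, SE 0.76) and missed the threshold with an adjusted p of 0.105, and those at 4 h were 2.98-fold in LV and 3.09-fold in RV (adjusted p = 0.35 and 0.28). With the block, Casp1 rose in RV at 4 h (log2 1.27, adjusted p = 0.063). Replicate 3 decided these sizes: the log2 fold change was 1.246 in LV at 8 h without LV 8 h replicate 3, 0.66 in LV at 4 h without LV 4 h replicate 3, and 0.54 in RV at 4 h without RV 4 h replicate 3. In LV at 8 h Casp1 was called without LV 4 h replicate 3, LV 8 h replicate 1, or LV 8 h replicate 2. The RV call at 8 h was lost without any one of the 3 RV 0 h libraries and without RV 8 h replicate 3, with adjusted p up to 0.19, and the lowest log2 fold change was 1.51, without RV 8 h replicate 3.

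Gsdmd (ENSMUSG00000022575.5, chr15:75862327-75867408, plus strand) encodes the pore-forming substrate of both caspases. In LV, Gsdmd was 7.11, 7.87, and 9.71 CPM at 0 h, 14.7, 10.9, and 22.3 CPM at 4 h, and 15.4, 12.8, and 39.3 CPM at 8 h. In RV, Gsdmd was 8.95, 7.25, and 9.83 CPM at 0 h, 15.2, 14.2, and 26.6 CPM at 4 h, and 22.0, 18, and 52.9 CPM at 8 h. As for the caspases, stored and 0 h libraries did not overlap, apart from Casp1 in RV at 4 h, and replicate 3 was the highest after storage. Gsdmd rose 2.74-fold in LV at 8 h (log2 1.45, SE 0.43, adjusted p = 0.095) and 3.65-fold in RV at 8 h (1.87, SE 0.43, adjusted p = 0.022). At 4 h the log2 fold changes were 0.96 in LV and 1.13 in RV, with adjusted p of 0.32 and 0.15, and with the block Gsdmd rose in RV at 4 h (1.05, adjusted p = 0.032). The LV call was lost in 7 of the 9 fits that left out 1 LV library, with adjusted p up to 0.30 and a log2 fold change between 0.77 and 1.79, and it held only without LV 4 h replicate 3 or LV 8 h replicate 2. The RV call was lost without RV 0 h replicate 2, at an adjusted p of 0.1003. It was also lost without number 1 of every group, where 888 of all tested genes were called.

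Il33 (ENSMUSG00000024810.16, chr19:29925114-29960718, plus strand) encodes the nuclear alarm cytokine IL-33, which signals through the receptor ST2. In LV, Il33 was 2.995, 4.52, and 3.27 CPM at 0 h, 15.1, 6.88, and 9.38 CPM at 4 h, and 19.1, 4.61, and 15.3 CPM at 8 h. In RV, Il33 was 3.77, 5.82, and 3.95 CPM at 0 h, 17.3, 6.81, and 10.8 CPM at 4 h, and 37.7, 7.96, and 20.6 CPM at 8 h. Here replicate 2 was the lowest of each stored group and the highest of each 0 h group, so that in LV at 8 h it exceeded the nearest 0 h library by less than 0.1 CPM. Il33 rose at 8 h, 3.63-fold in LV (log2 1.86, SE 0.49, adjusted p = 0.072) and 4.92-fold in RV (2.30, SE 0.52, adjusted p = 0.0215). At 4 h the log2 fold changes were 1.55 in LV and 1.39 in RV, with adjusted p of 0.17 and 0.15. The LV call was lost without any one of the 3 LV 0 h libraries, LV 8 h replicate 1, or LV 8 h replicate 3, with adjusted p up to 0.20, and the RV call held without any single library. The RV call was lost without number 1 or 3 of every group, where 888 and 1712 of all tested genes were called.

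Il33 has 2 annotated starts that lead to the same coding length of 798 bases. Il33-202 begins at the upstream start and Il33-201 at the downstream one, and the windows in front of both are shown above. Il33-201 took 17.9, 15.7, and 0% of the gene's counts in LV at 0 h, 63.4, 33.5, and 21.8% at 4 h, and 49.4, 50.8, and 25.9% at 8 h. In RV it took 0, 0, and 15.9% at 0 h, 51.0, 43.0, and 8.8% at 4 h, and 45.7, 58.6, and 13.4% at 8 h. The mean share in LV went from 11.2% ± 9.8 (SD, n = 3) at 0 h to 42.0% ± 14.0 at 8 h, without overlap between the groups (exact two-sided permutation test, p = 0.1, the smallest possible). In RV it went from 5.3% ± 9.2 to 39.2% ± 23.3, and replicate 3 made the groups overlap (exact permutation test, p = 0.2). The libraries at 0 h held at most 26.0 estimated counts of Il33-201 each, so the 0 h shares are imprecise, whereas those at 8 h held between 69.1 and 515. Il33-202 had means of 3.09 ± 0.79 CPM at 0 h and 7.35 ± 4.79 CPM at 8 h in LV, and Il33-201 had 0.416 ± 0.370 and 5.24 ± 3.71 CPM.

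**Figure D2:**
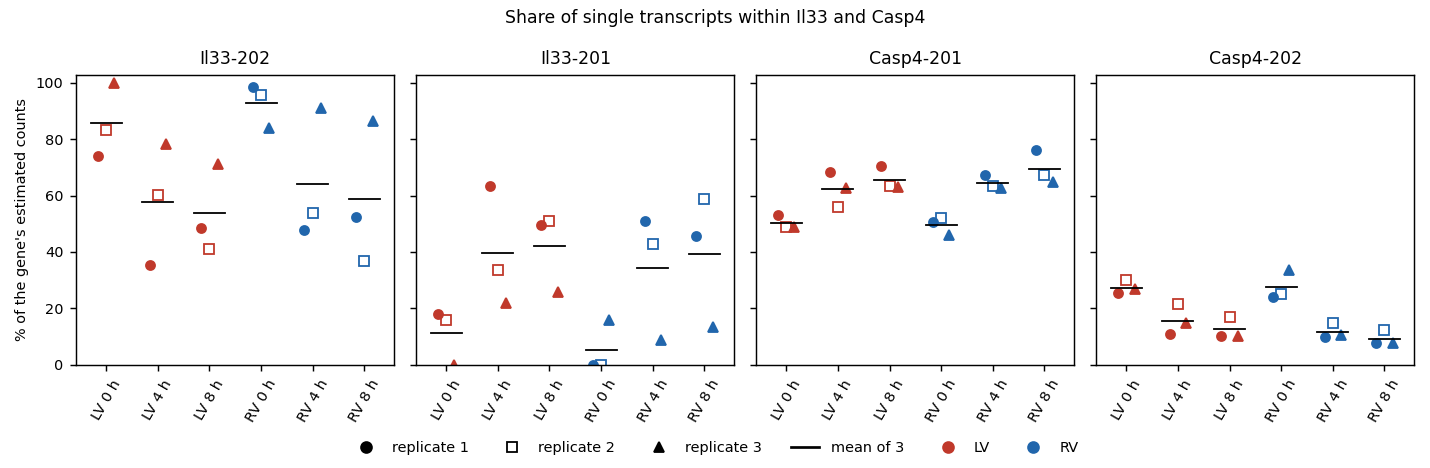
Percent of the estimated counts of Il33 and Casp4 given to single transcripts, by ventricle and storage time. Circles, open squares, and triangles are replicates 1, 2, and 3, and bars are means of 3 libraries. The mean share of Casp4-201 in LV is 50.3% without storage and 65.6% after 8 h, with 49.7% and 69.5% for RV, while that of Il33-201 is 11.2% and 42.0% for LV, with 5.3% and 39.2% for RV.

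Il18 (ENSMUSG00000039217.13, chr9:50554827-50581840, plus strand), the precursor of IL-18, was the member with the fewest counts, between 5 and 75 estimated counts per library. In LV, Il18 was 0.413, 0.439, and 0.435 CPM at 0 h, 0.560, 0.386, and 0.515 CPM at 4 h, and 0.432, 0.441, and 1.29 CPM at 8 h. In RV, Il18 was 0.146, 0.203, and 0.294 CPM at 0 h, 0.633, 0.311, and 1.56 CPM at 4 h, and 0.602, 1.11, and 2.78 CPM at 8 h. The RV groups did not overlap with 0 h in CPM, while in LV the 8 h mean rested on replicate 3. At 4 h in RV, replicate 2 held 8 estimated counts and RV 0 h replicate 3 held 9. Since Il18 passed the filter in RV on its stored libraries, its rise there is not independent of the filter. Il18 rose in RV at 8 h (7.08-fold, log2 2.82, SE 0.76, adjusted p = 0.040), and the RV change at 4 h was 3.91-fold (adjusted p = 0.17), or log2 1.86 with the block, where it passed (adjusted p = 0.053). In LV the log2 fold changes were 0.18 at 4 h and 0.71 at 8 h (adjusted p = 0.91 and 0.37). The RV call was lost without any one of the 3 RV 0 h libraries and without RV 8 h replicate 3, with log2 fold changes down to 1.98 and adjusted p up to 0.14.

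Il1b (ENSMUSG00000027398.13, chr2:129364570-129371139, minus strand) and Il1a (ENSMUSG00000027399.1, chr2:129299610-129309972, minus strand) are neighbours that encode the agonists of the IL-1 receptor. In LV, Il1b was 29.5, 12.6, and 16.8 CPM at 0 h, 41.2, 39.7, and 17.1 CPM at 4 h, and 27.7, 21.8, and 23.6 CPM at 8 h. In RV, Il1b was 27.1, 14.6, and 14.9 CPM at 0 h, 72.2, 65.9, and 14.3 CPM at 4 h, and 71.4, 46.0, and 25.2 CPM at 8 h. All of these groups overlapped with 0 h, since replicate 1 was the highest 0 h library in both ventricles and replicate 3 was low after storage in RV. The log2 fold changes of Il1b were 0.74 (SE 0.37) at 4 h and 0.31 (SE 0.37) at 8 h in LV and 1.44 (SE 0.56) and 1.33 (SE 0.56) in RV, with adjusted p of 0.38, 0.63, 0.17, and 0.15. In the block fit of RV, Il1b rose by 1.23 (SE 0.35, adjusted p = 0.068) at 4 h and 1.24 (SE 0.35, adjusted p = 0.043) at 8 h.

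In LV, Il1a was 13.8, 4.36, and 1.52 CPM at 0 h, 29.4, 11.8, and 7.25 CPM at 4 h, and 7.09, 6.10, and 9.05 CPM at 8 h. In RV, Il1a was 12.4, 5.01, and 1.18 CPM at 0 h, 52.2, 40.8, and 9.25 CPM at 4 h, and 44.0, 22.8, and 13.5 CPM at 8 h. Only RV at 8 h lay wholly above its 0 h group, and the 0 h libraries themselves spanned about an order of magnitude. The log2 fold changes were 1.28 (SE 0.71) and 0.16 (SE 0.72) in LV and 2.47 (SE 0.83) and 2.10 (SE 0.82) in RV at 4 h and 8 h, with adjusted p of 0.44, 0.91, 0.12, and 0.12. With the block, Il1a rose in RV by 2.62 (SE 0.34, adjusted p = 0.0054) at 4 h and 2.45 (SE 0.35, adjusted p = 0.0036) at 8 h. Exons of Il1a overlap with Gm14023 on the opposite strand over 222 bases, and those of Il1b with Il1bos over 25 bases. Pseudoalignment was run with default settings, which do not use the strand, so reads from these stretches cannot be told apart.

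Nlrp3 (ENSMUSG00000032691.14, chr11:59541568-59566956, plus strand) encodes the sensor, and its transcription is the step known as priming. In LV, Nlrp3 was 18.1, 8.88, and 4.95 CPM at 0 h, 27.6, 29.5, and 16.1 CPM at 4 h, and 18.4, 19.6, and 19.6 CPM at 8 h. In RV, Nlrp3 was 21.9, 15.4, and 3.88 CPM at 0 h, 44.6, 54.1, and 20.6 CPM at 4 h, and 38.2, 42.6, and 22.6 CPM at 8 h. The 8 h groups lay above 0 h without overlap, by a narrow margin of less than 1 CPM in each ventricle, and the 4 h groups overlapped with 0 h. The log2 fold changes were 1.19 (SE 0.41) and 0.85 (SE 0.41) in LV and 1.55 (SE 0.56) and 1.33 (SE 0.56) in RV at 4 h and 8 h, with adjusted p of 0.20, 0.24, 0.14, and 0.14. Nlrp3 rose in RV in the block fit, by 1.69 (SE 0.31, adjusted p = 0.017) at 4 h and 1.55 (SE 0.31, adjusted p = 0.013) at 8 h.

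Pycard (ENSMUSG00000030793.4, chr7:127989708-127993867, minus strand) encodes the adaptor ASC. Its level in LV was 4.92 ± 1.58 CPM (SD, n = 3), 4.78 ± 0.46 CPM, and 5.11 ± 1.43 CPM in order of storage time. RV had 5.51 ± 0.43, 5.78 ± 1.01, and 5.41 ± 0.85 CPM. The log2 fold changes were -0.041 (SE 0.27) and 0.051 (SE 0.27) in LV and 0.086 (SE 0.20) and -0.0079 (SE 0.20) in RV at 4 h and 8 h, with adjusted p of at least 0.89, and their sign turned with the choice of normalization or library. A second gene, Gm45205, overlaps with the exons of Pycard over 485 bases on the opposite strand.

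**Figure D3:**
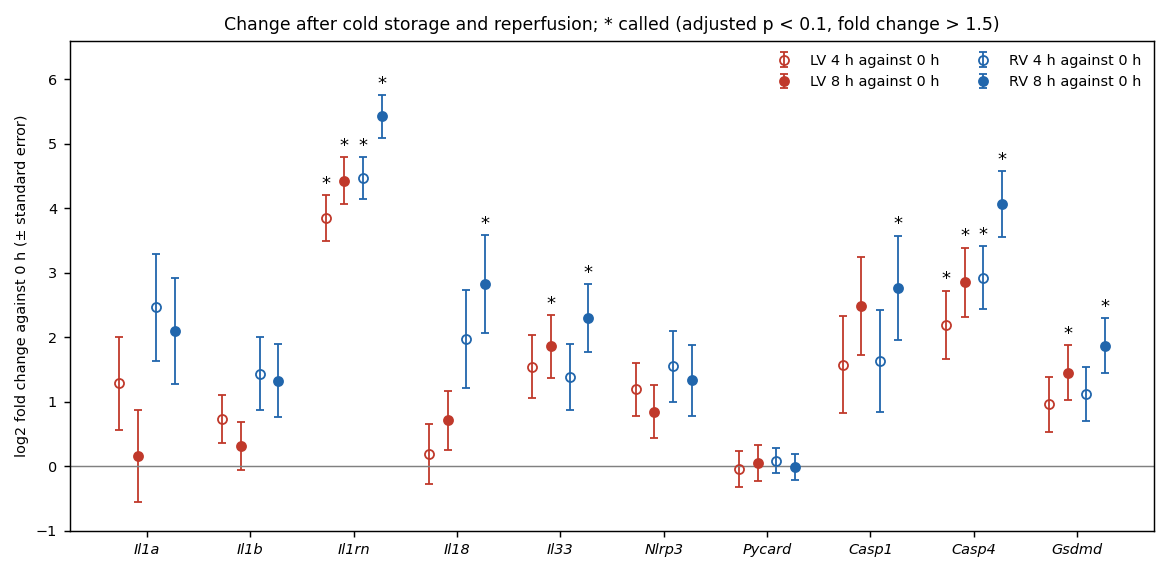
Log2 fold change against 0 h from edgeR, with its standard error, for the 10 genes in LV (red) and RV (blue) at 4 h (open) and 8 h (filled) of storage. Asterisks mark calls (adjusted p under 0.1 and fold change over 1.5). Il1rn has the largest change in all 4 comparisons, between 3.85 and 5.43, and Pycard lies near 0 in all of them.

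Levels can be set against each other between genes only per transcript length, in TPM, the share of all transcripts after correction for length. At 0 h in LV, Il1b stood first with 21.7 ± 9.7 TPM (SD, n = 3), then Casp4 with 12.6 ± 2.8 TPM, while Il1rn had 1.19 ± 0.50 TPM and Il18 came last with 0.869 ± 0.053 TPM. Neighbours in this order overlapped in their ranges over the 3 libraries. At 8 h in LV, Casp4 stood first with 77.7 ± 55.8 TPM and did not overlap with the next gene, Il1b at 21.6 ± 4.3 TPM, and Il1rn followed with 18.9 ± 1.3 TPM. At 8 h in RV the first 3 were the same, Casp4 with 143 ± 89 TPM, Il1b with 41.1 ± 20.1 TPM, and Il1rn with 28.4 ± 7.5 TPM. At 0 h the TPM of Il1b was thus many times that of Il1rn in both ventricles, and at 8 h the ranges of the 2 genes overlapped.

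For stored against 0 h libraries of RV, same-numbered libraries deviated together, so that the fit with the replicate number as a block is given beside the one without. Such libraries are not of 1 heart, since each heart had 1 storage time. The level of Y-linked genes, given further on, differed between 0 h and stored libraries of numbers 2 and 3. Calls that only the block gave rest on an unexplained likeness of same-numbered libraries. The members that the block added at 4 h were Casp1, Gsdmd, Il18, Il1a, Il1b, and Nlrp3, and those added at 8 h were Il1a, Il1b, and Nlrp3. Without all libraries of replicate number 1, 2, or 3 the block fit called 4, 4, and 7 members at 4 h and 7, 9, and 9 at 8 h. Over all tested genes it called 622, 492, and 1958 at 4 h and 1633, 3364, and 2375 at 8 h. DESeq2 without a block called 8 members in RV at each time, against 1962 and 3025 of 22849 genes at 4 h and 8 h.

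Between 4 h and 8 h no member was called in either ventricle by edgeR, and 0% of all tested genes were called in LV and 0% in RV. The unadjusted p was under 0.05 for 0 members of LV and 2 of RV. DESeq2 called 0 members in both, against 71 of 22845 genes in LV and 43 of 22849 in RV. With the replicate block 0 members were called in LV, against 0.00687% of tested genes, and 0 in RV, against 0%, while 4 members of RV and 0 of LV passed 0.05 without adjustment.

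At 8 h the mean levels in RV were above those in LV, though no member was called without regard to pairs. No source states that same-numbered libraries are of 1 heart. Comparing libraries of the same number, RV exceeded LV in all 3 pairs for 9 of 10 members at 8 h, with Pycard the exception, where 24.1% of tested genes did so. At 4 h this held for 6 members (Il1a, Il1rn, Nlrp3, Pycard, Casp4, and Gsdmd), against 21.3%, and at 0 h for 2 (Il33 and Casp1), against 21.1%. At 8 h, RV held 6.21, 3.74, and 1.49 times the LV level of Il1a in pairs 1, 2, and 3, and 2.58, 2.12, and 1.06 times that of Il1b. For Casp4 the ratios were 2.31, 1.90, and 1.79, for Il33 1.98, 1.73, and 1.35, and for Gsdmd 1.43, 1.41, and 1.35. The third pair had the smallest ratio for all of these genes, and the spread between pairs was small for Gsdmd and Casp4 and large for Il1a.

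Without regard to pairs, edgeR called 0 of 10 members between LV and RV after each of the 3 storage times, where, in order of time, 0.159%, 0.0133%, and 0.0331% of all tested genes were called. The numbers of members with an unadjusted p under 0.05 were 0, 0, and 2, and DESeq2 called 0 at each time, against 59, 24, and 182 of 24110 genes. With same-numbered libraries of a storage time as 1 block, 0 members were called at 0 h, against 1.85% of tested genes, with 3 at an unadjusted p under 0.05. At 4 h 1 was called, against 1.93%, and at 8 h 7, against 8.78%, all lower in LV. The one at 4 h was Nlrp3 (log2 -0.65, SE 0.19, adjusted p = 0.093), and Casp4 passed the adjusted p but not the fold threshold (-0.51, adjusted p = 0.0225). The 7 at 8 h were Casp4 (log2 LV against RV -0.99, SE 0.094, adjusted p = 0.00024), Il33 (-0.74, SE 0.10, adjusted p = 0.00078), Il1a (-1.76, SE 0.33, adjusted p = 0.0036), Il1rn (-0.74, SE 0.16, adjusted p = 0.0086), Nlrp3 (-0.81, SE 0.19, adjusted p = 0.012), Il1b (-0.87, SE 0.23, adjusted p = 0.019), and Il18 (-0.99, SE 0.36, adjusted p = 0.068). Gsdmd (-0.48, adjusted p = 0.0035) and Casp1 (-0.36, adjusted p = 0.022) passed the adjusted p but not the fold threshold. Without all libraries of number 1, 2, or 3, this fit called 2, 5, and 6 members at 8 h, and 0, 0, and 5 at 4 h, where Nlrp3 was thus lost without number 1 or 2. Over all tested genes it called 634, 1291, and 1578 at 8 h and 117, 2, and 323 at 4 h. These calls rest on the replicate numbers naming hearts, which the methods make possible by collecting both ventricles of a heart but do not state. Markers of other cell types also differed between the ventricles in this fit at 8 h. All 3 adipocyte markers (Adipoq, Plin1, and Cidec) were called lower in LV, with a median log2 of -1.98 and summed levels of 0.678 to 3.40 CPM in LV and 2.71 to 9.19 CPM in RV. Of the tested markers, 1 of 4 of fibroblasts, 1 of 3 of smooth muscle, 1 of 7 of macrophages, and 1 of 3 of monocytes were called lower in LV, and 3 of 4 globin genes higher. Of 4 neutrophil markers 1 (Csf3r) was called lower and 2 (S100a8 and S100a9) higher in LV, and 0 of 6 cardiomyocyte, 0 of 4 endothelial, and 0 of 3 atrial markers were called. Their part in the difference between the ventricles was not tested.

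**Figure D4:**
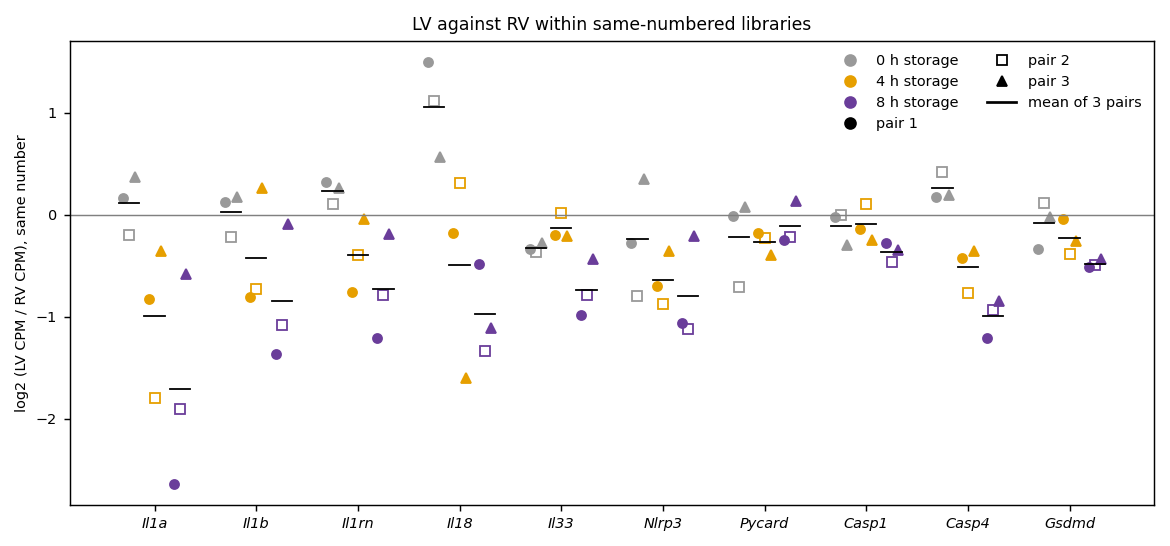
Log2 of the ratio of LV to RV CPM in same-numbered libraries, for the 10 genes at 0 h (grey), 4 h (orange), and 8 h (purple) of storage, with pairs 1, 2, and 3 as circles, open squares, and triangles and bars for the mean of 3 pairs. At 8 h all 3 pairs lie below 0 for every gene but Pycard, and the lowest point is Il1a in pair 1 at -2.63.

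Whether the change with storage differed between the ventricles was tested by the interaction of ventricle and storage time. By edgeR 0 members were called at 4 h and 0 at 8 h, where 0% and 0% of all tested genes were called, and 0 and 1 members had an unadjusted p under 0.05. DESeq2 called 0 members at both, against 0 and 2 of 24110 genes. With the pairs as blocks 1 member was called at 4 h, against 0.305% of tested genes, and 3 at 8 h, against 5.71%. Casp4 rose less in LV than in RV, by a log2 difference of -0.77 (SE 0.14, adjusted p = 0.091) at 4 h and -1.25 (SE 0.14, adjusted p = 0.0013) at 8 h. At 8 h Il18 differed by -2.01 (SE 0.57, adjusted p = 0.059) and Il1a by -1.84 (SE 0.50, adjusted p = 0.050). Casp4 had at least 233 estimated counts in every library, and Il18 as few as 5. The difference in Il18 included the 0 h libraries, where LV exceeded RV in all 3 pairs, by 1.499, 1.11, and 0.57 on the log2 scale. In this fit without number 1, 2, or 3 the counts at 8 h were 1, 1, and 5, and at 4 h 0, 0, and 3, so that the call of Casp4 at 4 h was lost without number 1 or 2.

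Members did not vary alike between stored libraries of a group. Replicate 3 of each stored group was the highest for Casp1, Casp4, and Gsdmd, and the lowest for Il1b in RV and at 4 h in LV. In RV it was also the highest for Il18 and the lowest for Il1a and Nlrp3 at 4 h and 8 h. The summed level of 4 Y-linked genes (Ddx3y, Eif2s3y, Kdm5d, and Uty) was between 4.63 and 6.78 CPM in replicate 3 of the 4 stored groups and in replicate 2 at 0 h of both ventricles, and between 133 and 194 CPM in the other 12 libraries. It was thus alike within all 9 same-numbered pairs of LV and RV, and differed between stored and 0 h libraries of numbers 2 and 3. The part of the animals' sex in these values was not tested. The cardiomyocyte markers Myh6, Tnnt2, Tnni3, Actc1, Ryr2, and Myl2 summed to between 52030 and 63320 CPM in LV and 54830 and 62910 CPM in RV at 0 h. At 8 h they summed to between 38790 and 45540 CPM in LV and 26450 and 51620 CPM in RV, lowest in RV replicate 3. Myh6 was the largest part of the sum in every library. In LV it was 38210, 34990, and 29970 CPM at 0 h and 23200, 24080, and 19030 CPM at 8 h. For the other cardiomyocyte markers the 0 h and 8 h libraries of LV overlapped, and 1 of the 6 was called lower in LV at 8 h. The part of the lower sum in the members' changes was not tested.

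Genes of other cell types were measured beside the members, since macrophages and neutrophils make much of the body's IL-1. The 7 macrophage markers (Adgre1, Csf1r, Cd68, C1qa, C1qb, Mrc1, and Lyz2) summed to between 188 and 326 CPM in LV at 0 h and 243 and 418 CPM at 8 h, and to between 233 and 399 CPM and 286 and 535 CPM in RV. None of the 7 was called in LV, and 3 rose in RV at 8 h. Of the monocyte markers (Ly6c2, Ccr2, and Plac8) 1 of 2 tested rose in LV at 8 h, and in RV 1 of 3 rose and 1 fell. The 6 neutrophil markers summed to between 1.94 and 2.40 CPM in LV at 0 h and 10.5 and 19.4 CPM at 8 h, and to between 1.76 and 3.46 CPM and 12.6 and 20 CPM in RV. At 8 h 3 of 4 tested ones rose in LV (Csf3r, S100a8, and S100a9) and 1 of 2 tested ones in RV (Csf3r). Csf3r, a receptor gene of myeloid cells, had 6.78, 7.999, and 8.999 CPM in LV at 8 h. It was the largest single part of the sum in each replicate, with S100a9 close to it in replicate 1. S100a8 and S100a9, the most abundant neutrophil transcripts, were at most 3.08 and 6.38 CPM, both in LV 8 h replicate 1, and Ly6g was at 0 in all libraries but that one. Lymphocyte markers summed to at most 1.05 CPM. Globin genes summed to between 52.0 and 194 CPM in replicate 1 of the 4 stored groups, to at most 31.1 CPM in the other stored libraries, and to at most 6.15 CPM at 0 h, and 2 of the 4 rose in LV at 8 h. Fibroblast, smooth muscle, endothelial, and adipocyte markers had 0 calls against 0 h in LV, and 1 of 4 fibroblast markers rose in RV at 8 h. The part of these cells in the members' changes was not tested.

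Of the genes around the members, Il1r1, the signalling receptor for IL-1, rose at both times in both ventricles. Its level was 14.8 ± 2.1 CPM (SD, n = 3) in LV at 0 h, 40.6 ± 15.2 at 4 h, and 44.6 ± 7.9 at 8 h, and 14.9 ± 1.4, 47.5 ± 18.03, and 82.1 ± 42.9 CPM in RV. The log2 fold changes at 8 h were 1.59 (SE 0.25, adjusted p = 0.017) in LV and 2.47 (SE 0.38, adjusted p = 0.0048) in RV. Among 14 receptors and regulators of the IL-1 family, 9 were tested in LV and 10 in RV. In LV 1 rose at 4 h and 1 at 8 h, in RV 2 rose at 4 h and 3 at 8 h, and 0 fell. Over all tested genes the LV shares called were 2.79% and 6.72%, and the RV shares 10.1% and 18.2%. The other 2 in RV at 8 h were Il1rap, the co-receptor (log2 1.37, adjusted p = 0.020), and Il1r2, the decoy receptor (log2 2.60, adjusted p = 0.034). Il1r2 had only 1 to 23 estimated counts per library, so its change is imprecise. Il1rl1, which encodes ST2, had log2 fold changes of -0.46 in LV and -0.42 in RV at 8 h (adjusted p = 0.43 and 0.50). Il18bp, the soluble inhibitor of IL-18, had 0.92 and 1.13 (adjusted p = 0.13 in both). The median log2 fold change of the tested genes of this list was 0.79 in LV and 1.06 in RV at 8 h.

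In the MyD88 arm, which carries the signal from IL-1 receptors to NF-κB, 3 of 10 genes rose in LV at 8 h and 0 fell, and 4 rose and 1 fell in RV. At 4 h 2 rose in LV, and 3 rose and 1 fell in RV. Of all tested genes, 6.72% were called for LV at 8 h and 2.79% at 4 h, with 18.2% and 10.1% for RV. Myd88, the adaptor, rose at 8 h by 2.25 (SE 0.47, adjusted p = 0.039) in LV and 3.09 (SE 0.45, adjusted p = 0.0041) in RV on the log2 scale. Irak3, a kinase-like inhibitor of this route, rose by 1.91 (adjusted p = 0.056) and 2.44 (adjusted p = 0.0033), and Irak2 by 1.39 (adjusted p = 0.037) and 1.81 (adjusted p = 0.0091). The one that fell was Tab1, with -0.71 in RV at 8 h (adjusted p = 0.028). The median of the list stayed near 0 at 8 h, with 0.081 in LV and 0.16 in RV.

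Other sensors of inflammasomes were mostly not called. Of 19 sensors and pyroptosis genes, 15 were tested, of which 1 and 2 rose in LV and 2 and 3 in RV at 4 h and 8 h, and 0 fell. These counts are near the shares over all tested genes in RV, 10.1% and 18.2%, while in LV the shares were 2.79% and 6.72%. Panx1, a membrane channel for ATP release, rose at both times in both ventricles, at 8 h with a log2 fold change of 2.33 (SE 0.27, adjusted p = 0.0058) in LV and 3.15 (SE 0.35, adjusted p = 0.0014) in RV. Mefv, which encodes the sensor pyrin, rose at 8 h in both (2.25, adjusted p = 0.044, and 2.03, adjusted p = 0.077), and Ninj1, which ruptures dying cells, rose in RV (0.68, adjusted p = 0.025). Mefv had only 2 to 53 estimated counts per library. The DNA sensor Aim2 (0.51 and 0.82), the sensor Nlrc4 (0.41 and 0.77), and Txnip, a binding partner of NLRP3 (-0.17 and 0.25), were not called at 8 h in LV and RV, with adjusted p of at least 0.16.

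The genes whose log2 CPM was most like that of a member over the 18 libraries are given as a description, since all values share the libraries and the difference between 0 h and stored groups. For Il1rn they were Mmp13 (Pearson's r = 0.984), Ereg (0.981), and Cd14 (0.977). For Casp4 they were Akap2 (0.992), Zfp729a (0.992), and Tnip1 (0.989), and for Il33 Cyth3 (0.936), Tslp (0.929), and Pros1 (0.922). For Il1a they were Diaph1 (0.956), Tnf (0.953), and Arih1 (0.951), for Il1b Plau (0.926), Pip5k1a (0.899), and Atp6ap2 (0.895), and for Nlrp3 Il1a itself (0.947), Arih1 (0.930), and C5ar1 (0.926).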

How the data were processed

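RNA of LV and RV was sequenced from a directional kit, and the authors aligned the reads to mouse transcripts with Kallisto 0.43.0. The deposited tables hold, for each transcript of each of 18 libraries, an estimated count, a TPM value normalized by length and depth, and a length and effective length, with no replicates pooled. The expected counts deposited by the authors were summed over the transcripts of a gene named by GENCODE M21 and rounded to whole numbers for the tests. Of 111462 transcripts 110203 matched, and the 1259 others held at most 0.383% of a library's counts. TPM values as deposited by the authors were summed in the same way. The genes Il36a, Il36b, Il36g, and Il36rn were looked up under the Il1f names of that annotation.

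Libraries held 22552581 to 46236771 estimated counts, of which 22.7% to 34.4% were mitochondrial, and genes with few counts are imprecise. Groups were taken from the labels. Genes passing the default expression filter (14564 in LV, 14622 in RV, and 15093 over all 18 libraries) were tested with edgeR 4.0.16 (TMM, quasi-likelihood) in R 4.3.3, with the 9 libraries of a ventricle in 1 fit for storage times and all 18 for ventricles. A gene was called at a Benjamini-Hochberg adjusted p under 0.1, over all genes tested, and a fold change over 1.5. The 4 h and 8 h comparisons of a ventricle share their 0 h libraries. Single transcript shares were compared by exact two-sided permutation tests, 40 in all and not adjusted, none of which could go below 0.1.

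LV and RV were taken from each heart according to the methods, which do not tie the replicate numbers to hearts. Deviations from the group means correlated between same-numbered LV and RV libraries at 0.325 to 0.697 (9 pairs, mean 0.535). The mean for different numbers was -0.258. Deviations within a group cancel out, so a negative mean for different numbers follows from a positive one for the same number. The contrast between these means is therefore no separate evidence of pairing. In RV the lowest correlation of same-numbered stored and 0 h libraries was 0.111 at 4 h and 0.165 at 8 h, and between 8 h and 4 h the lowest was 0.358 in LV and 0.327 in RV. All were over the limit of 0.1, so the fit with a replicate block is printed beside these comparisons. In LV against 0 h the lowest were 0.0404 at 4 h and -0.0191 at 8 h, under the limit. The mean correlations against 0 h were 0.171 and 0.217 in RV and 0.126 and 0.0265 in LV at 4 h and 8 h. The ventricles thus differed little at 4 h, and the limit decides where the block is printed. Libraries of a number at different storage times are not of 1 heart, so between times the block does not pair animals.

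Alternatives were DESeq2 1.42.0, its size factors in edgeR, no expression filter, length offsets, all libraries in 1 fit, the replicate block, and each library or replicate number left out. The fit was tested on simulated counts with 200 changed genes. For LV at 8 h (14413 genes) it found 53.1% of genes changed by 1 on the log2 scale and 95% of those changed by 2, for RV at 8 h (14445 genes) 28% and 89.9%, and for the difference between ventricles at 8 h (14896 genes) 15.2% and 65.7%. Of the calls, 5.16%, 12.0%, and 5.88% were false. The simulated libraries were independent, with a spread set by expression level alone. They held neither the spread of single genes nor the likeness of same-numbered libraries, so these rates need not hold for the real libraries.

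The 10 members and the lists were chosen with earlier results of these data known. All members are named, and from each list the genes called in both ventricles at both times, up to 4, plus Il1r1, Il1r2, Il1rl1, Il18bp, Myd88, Aim2, Nlrc4, and Txnip. Il1rap, Tab1, Mefv, Ninj1, the Y-linked genes, and the transcripts were named after their values were seen. For likeness, the 3 genes with the highest Pearson's r of log2 CPM (prior count 2) are given for 6 members. Promoter windows are from RefSeq. Figures were drawn with matplotlib 3.10.9. The protein blots were not analysed here.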

Additional observations from a re-analysis of the deposited data

Results flagged for a closer look

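In 3 members the change with storage differed between the ventricles by a test of the difference itself, the interaction of ventricle and storage time in edgeR with same-numbered LV and RV libraries as blocks. The change of Casp4 in LV minus that in RV was -0.77 on the log2 scale at 4 h (adjusted p = 0.091) and -1.25 at 8 h (adjusted p = 0.0013). That of Il18 at 8 h was -2.01 (adjusted p = 0.059), on 5 to 75 estimated counts per library, and that of Il1a at 8 h was -1.84 (adjusted p = 0.0495). At 8 h RV exceeded LV in all 3 pairs for each of the 3 genes. Without the block, edgeR called none of them (0 members called at 4 h and at 8 h, with 0 and 1 at an unadjusted p under 0.05, and 0 by DESeq2). With the block, Casp4 at 8 h was called whichever replicate number was left out, while Casp4 at 4 h, and Il18 and Il1a at 8 h, were called only when the number left out was 3. Single libraries far from their group were not looked for, since each group holds 3.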

How the results depend on the processing

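Il1rn kept its call against 0 h in all 9 fits that left out 1 library, in each of the 4 comparisons, but lost it in LV at 4 h and 8 h without number 2 of every group, where 0 and 1 of 14690 genes were called. Leaving out 1 library, or all libraries of 1 replicate number (an alternative chosen after seeing the data), moved the number of members called to 0 to 3 in LV at 4 h, 0 to 5 in LV at 8 h, 1 to 6 in RV at 4 h, 2 to 8 in RV at 8 h, and 0 to 2 between LV and RV at 8 h, and left it at 0 to 0 for 8 h against 4 h, LV against RV at 0 h and 4 h, and both interactions. Over all tested genes, calls against 0 h ranged in the same order from 0 to 835, 1 to 1928, 13 to 2066, and 888 to 4643. Between LV and RV at 8 h they ranged from 0 to 362. In LV at 4 h (2 members) DESeq2 called 4, DESeq2's size factors 1, and length offsets 1, against 913, 339, and 326 of all genes. In RV at 4 h (2) DESeq2 called 8 and a fit of all 18 libraries 5, against 1962 and 1899 of all genes. The replicate block called 8 in RV at 4 h, 1 and 7 between LV and RV at 4 h and 8 h, and 1 and 3 for the interactions at 4 h and 8 h. In LV, where the lowest correlations against 0 h were under the limit of 0.1, the block called 2 at 4 h and 5 at 8 h, Casp1 being the one added. The block without number 2 or 3 called 0 and 6 in LV at 4 h, and without number 1, 2, or 3 it called 4, 4, and 7 in RV at 4 h, 2, 5, and 6 between LV and RV at 8 h, and 1, 1, and 5 for the interaction at 8 h. Without number 3 it also called 2 for RV 8 h against 4 h, 5 between LV and RV at 4 h, and 3 for the interaction at 4 h, and without number 1 or 2 it called 0 in each of these 3 comparisons. The cause of these moves was not tested. Pycard changed sign in LV at 4 h with the block (0.0071) and the block without number 1 (0.15) or 3 (0.13), in LV at 8 h with length offsets (-0.040) and the block without number 2 (-0.014), in RV at 4 h with the block without number 3 (-0.0053), and in RV at 8 h with DESeq2 (0.017), its size factors (0.030), length offsets (0.25), and the block without number 2 (0.078). Il1a changed sign in LV at 8 h with the block without number 3 (-0.30). Without the block, leaving out a whole number turned Pycard to 0.068 (number 1, LV at 4 h), -0.0052 (number 2, LV at 8 h), -0.0046 (number 3, RV at 4 h), and 0.077 (number 2, RV at 8 h), and Il1a ranged from -0.31 to 1.34 in LV at 8 h with 1 library left out. With a library or number left out, Pycard ranged from -0.27 to 0.17 in LV at 4 h, -0.19 to 0.27 in LV at 8 h, -0.066 to 0.19 in RV at 4 h, -0.10 to 0.11 in RV at 8 h, and -0.32 to 0.088 between LV and RV at 8 h, Il1a from -0.51 to 1.37 in LV at 8 h, and between LV and RV at 8 h Casp1 from -1.61 to 0.87 and Gsdmd from -1.14 to 0.18. An adjusted p that DESeq2 gave as missing was left out. Depth limits Il18 and the shares of Il33-201 at 0 h, and 3 libraries a group limit all tests.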
